A study of Mus musculus with 2 samples.

Results

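Mir132 and Mir212 are a pair of neighbouring miRNA genes, 2 of the 2202 miRNA genes counted in left cerebral cortex of aged mice. Both were chosen by gene symbol, with earlier results of these data known, and both were found in the tables. The tissue came from B6CASTF1/J mice, F1 hybrids between the inbred strains C57BL/6J and CAST/EiJ, at 18 to 20 months of age, with no treatment named. The series holds 1 group of 2 libraries, made from total RNA with a size range under 30 nucleotides, so the data give levels in 1 tissue and the spread between 2 libraries, with no contrast of conditions. The sex is given as female in some label fields and male in another, and both libraries carry the same donor identifier. Nothing in the labels beyond the replicate numbers says that the libraries came from separate animals, and every spread and p-value below may be technical.

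A miRNA is cut from an RNA hairpin as a duplex of a 5p and a 3p arm, and bases 2 to 8 of the arm that is loaded into an Argonaute protein, the seed, choose the mRNAs it represses. The miR-132 and miR-212 hairpins are cut from a shared primary transcript. In neurons that transcript is induced by synaptic activity and by neurotrophins such as BDNF, through the transcription factor CREB, and miR-132 is known for promoting dendrite and spine growth. Among its studied targets is the GTPase-activating protein p250GAP, which restrains Rac signalling.

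Both genes lie on the plus strand of chromosome 11 (mm10), within intron 1 of the non-coding gene 1700016P03Rik (ENSMUSG00000085609.1, exons 1 to 3 between 75172560 and 75177633). Mir212 (ENSMUSG00000065590.1) comes first, at 75173388 to 75173478, starting 828 bases after the start of the host transcript. Mir132 (ENSMUSG00000065537.2) follows at 75173682 to 75173747, and 230 bases separate it from exon 2. The hairpins are 203 bases apart and span 360 bases together. The next miRNA gene on the chromosome, Gm47300, is 144740 bases away. Of the protein-coding genes nearby, Hic1, a transcriptional repressor, lies 3868 bases before the pair on the minus strand, and Ovca2 lies 2194 bases beyond it, also on the minus strand.

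**Figure D1:**
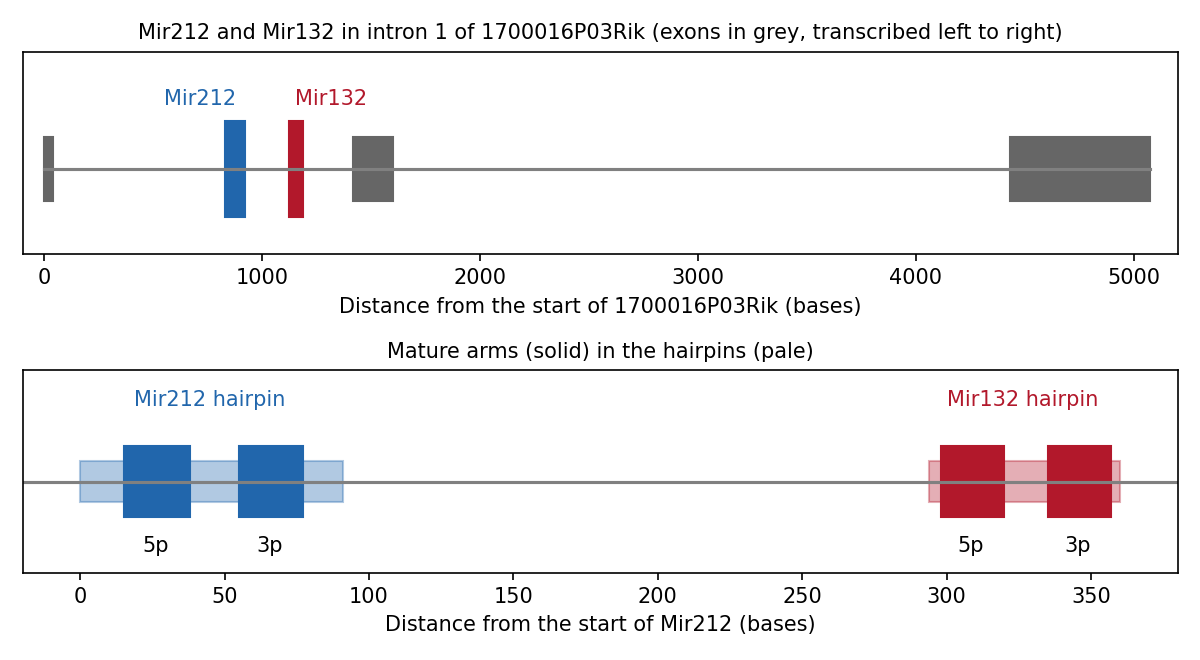
Map of the Mir212 and Mir132 locus. The upper panel plots the distance in bases from the start of 1700016P03Rik, with its 3 exons in grey and both hairpins in intron 1. The lower panel plots the distance in bases from the start of Mir212, with the annotated 5p and 3p arms solid inside the pale hairpins, which are 203 bases apart.

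The mature sequences are shown because the members are a pair by their 3p seed, with the seed in capitals (RefSeq, GRCm38.p6, plus strand, chr11:75173723-75173744 for miR-132-3p, chr11:75173443-75173464 for miR-212-3p, chr11:75173686-75173707 for miR-132-5p and chr11:75173403-75173425 for miR-212-5p).
miR-132-3p: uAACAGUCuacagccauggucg
miR-212-3p: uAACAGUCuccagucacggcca
miR-132-5p: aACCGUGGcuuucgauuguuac
miR-212-5p: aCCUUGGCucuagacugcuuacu
The 3p arms had the same seed, AACAGUC, and the same first 9 bases. They were identical at 17 of 22 positions (77.3%), and the differences, with the miR-132-3p base first and positions counted from 1 at the 5′ end, were A10C, C14U, U17C, U20C and G22A. The 5p arms had different seeds and were identical at 9 of the 22 positions compared from their 5′ ends (40.9%). Their longest shared run, UGGCU, starts at base 6 of miR-132-5p and at an earlier base of miR-212-5p. The 5p arms were thus out of register in that comparison, and no shifted alignment was made, so 40.9% may understate their likeness. Among 1738 mature miRNAs in the sequence table, the seed AACAGUC was found in these 2 alone, and the seed of each 5p arm in that arm alone.

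The hairpins, with both arms in capitals, show where the annotated arms lie (RefSeq, GRCm38.p6, plus strand, chr11:75173682-75173747 and chr11:75173388-75173478).
Mir132: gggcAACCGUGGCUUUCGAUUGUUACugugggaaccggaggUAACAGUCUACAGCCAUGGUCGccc
Mir212: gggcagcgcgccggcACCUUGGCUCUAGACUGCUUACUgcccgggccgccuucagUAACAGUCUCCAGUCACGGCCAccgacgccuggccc
Both hairpins had the same sequence and position in RefSeq and in GENCODE M21. The Mir132 hairpin has 66 nucleotides and 15 between its arms, and the Mir212 hairpin has 91 and 17. Mir212 was rich in G and C, at 69.2%, above 393 of the 409 expressed miRNA genes, whose median was 52.1%. Mir132 stood at 57.6%, above 297 of them. The folding energy predicted by RNAfold was -37.2 kcal/mol for Mir132, or -0.56 per nucleotide, and 378 of the 409 genes folded more weakly per nucleotide. For Mir212 it was -41.5 kcal/mol, or -0.46 per nucleotide, near the median of -0.43.

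The deposited counts are per gene, so a read of the 5p arm and a read of the 3p arm add to the same value and the arms cannot be told apart. Reads with several places in the genome are listed apart from the gene counts, at 41.8% and 46.4% of all reads. The longest stretch that Mir132 shared with any other miRNA gene was 11 nucleotides, and for Mir212 it was 12. By comparison, 84 of the 409 expressed genes (20.5%) shared 20 nucleotides or more with another miRNA gene at a different place. The rest of the genome was not searched.

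Mir132 was one of the most abundant miRNA genes of this cortex and Mir212 was above most expressed genes, at a far lower level. Levels are in CPM, the sense count of a gene divided by the sense counts of all miRNA genes and multiplied by 1000000, and the libraries held 5166667 sense counts in replicate 1 and 4459993 in replicate 2. Mir132 had 219327 counts in replicate 1, a level of 42450 CPM (exact Clopper-Pearson 95% interval 42277 to 42625). In replicate 2 it had 150229 counts, a level of 33684 CPM (33516 to 33851). Its level was thus higher in replicate 1, with a mean of 38067 ± 6199 CPM (SD, n = 2), which is 3.81% ± 0.620 of all sense counts and 428-fold the median of expressed genes, 88.9 CPM. Expressed genes are the 409 that reached 2 CPM in each library. In bulk tissue, fewer cells of a type and less RNA per cell cannot be told apart.

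Mir212 had 3471 counts in replicate 1, a level of 671.8 CPM (649.6 to 694.5), and 1907 counts in replicate 2, a level of 427.6 CPM (408.6 to 447.2). It too was higher in replicate 1. Its mean was 549.7 ± 172.7 CPM (SD, n = 2), or 0.0550% ± 0.0173 of sense counts and 6.18-fold the median of expressed genes. The intervals cover counting error only, and the gap between the libraries was wider than them for both genes.

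By mean level Mir132 stood at rank 6 of 2202 genes, at rank 5 in replicate 1 and 7 in replicate 2. The genes next to it in that order did not stand apart from it. Mir127, an imprinted miRNA at rank 5, had 60403 CPM and 39198 CPM in replicates 1 and 2, and Mirlet7i at rank 4 had 41706 and 58839 CPM. Mir744 at rank 7 had 35177 and 38951 CPM. All 3 ranges overlapped that of Mir132. Mirlet7b at rank 3 (67094 and 71708 CPM) and Mirlet7e at rank 8 (27203 and 32838 CPM) did not overlap it. The let-7 genes belong to a family of miRNAs that is high in differentiated tissue.

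Mir212 stood at rank 114, at rank 111 in replicate 1 and 121 in replicate 2, with 295 expressed genes below it. Its range overlapped those of all 3 genes on either side of it in the order. These were Mir532, Mir322 and Mir3102 above, between 575.3 and 585.0 CPM in the mean, and Mir7689, Mir1981 and Mir204 below, between 499.8 and 511.0 CPM.

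**Figure D2:**
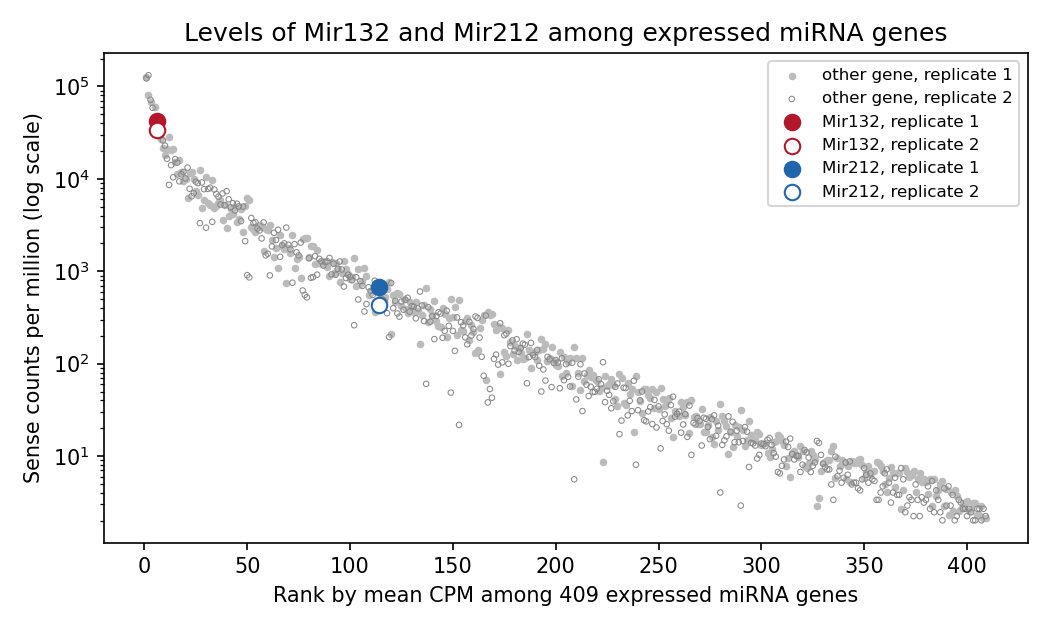
Levels of the 409 expressed miRNA genes in each library. The x axis is the rank by mean CPM, the y axis the level in CPM on a log scale, filled points are replicate 1 and open points replicate 2. Mir132 (red) lies at the steep left end at rank 6 and Mir212 (blue) at rank 114, and both are lower in replicate 2.

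Mir132 gave far more counts than Mir212 in both libraries. Replicate 1 gave 63.2 Mir132 counts for each Mir212 count (61.1 to 65.4, exact 95% interval), and replicate 2 gave 78.8 (75.3 to 82.5). Mir212 was thus 1.56% of the joint count in replicate 1 and 1.25% in replicate 2. The mean ratio was 71.0 ± 11.02 (SD, n = 2). Per nucleotide of hairpin it was 97.9 ± 15.2, given as an alternative only, since a read is a whole mature miRNA and levels are not per length. This ratio is within a library and does not depend on how the libraries are scaled, but it compares counts of different sequences, and how evenly ligation and amplification captured them was not tested.

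Together the pair took 4.31% of the sense total of replicate 1 and 3.41% of that of replicate 2, a joint level of 38617 ± 6372 CPM (SD, n = 2), of which Mir132 was 98.6%. Genes were also summed by seed, counting a gene under the seed of each annotated arm since the arms are not separated. Of 1058 gene symbols in the sequence table, 1018 matched a counted gene. Over all 1352 seeds, AACAGUC had the 9th highest sum, and among the 205 seeds held by 2 or more genes it had the third highest. Since a gene adds its whole count to the seed of each arm, these places can rest on reads of the other arm. Among those 205, only GAGGUAG, the let-7 seed, with 13 genes summing to 285960 CPM, and UAUACAA, carried by 5 of the same genes, with 75140 CPM, were above it. Next below was ACCCGUA, the seed of miR-99 and miR-100, with 3 genes summing to 29805 CPM. Reads with several places are not in these sums, and families with identical copies may be understated.

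No antisense count was recorded at either gene. The 0 of Mir132 allows an antisense level of up to 0.00137% of the sense count in replicate 1 and 0.00200% in replicate 2, taking 3 counts as the limit. For Mir212 the limits were 0.0864% and 0.157%. The column counted without strand held the same numbers as the sense column for both genes in both libraries, so no read at them was ambiguous between strands.

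Unequal output was common among neighbouring miRNA genes, and this pair was among the more unequal. There were 87 pairs of adjacent miRNA genes on the same strand with a gap of at most 10 kb and both genes expressed. In mean CPM, Mir132 exceeded Mir212 by 6.11 on the log2 scale, the 9th largest difference in size of the 87, beside a median of 3.35. The downstream gene was the higher one in 39 of the 87 pairs, Mir212 and Mir132 included. The largest differences were 10.06 for Mir544 and Mir382, 8.31 for Mir29b-1 and Mir29a and 8.02 for Mir323 and Mir758. The pairs nearest to it in difference were Mir3070b with Mir431 (6.18) and Mir181a-2 with Mir181b-2 (6.20).

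In 7 of the 8 pairs with a larger difference, at least 1 gene shared 20 nucleotides or more with another miRNA gene, beside 30 of all 87 pairs. The exception among the 8 was Mir544 with Mir382. Reads of a sharing gene may be listed as having several places. Whether that gene was the higher or the lower of its pair was not examined, so a difference may be overstated or understated. Among the 57 pairs in which neither gene shares such a stretch, a selection made after the values were seen, Mir212 and Mir132 had the second largest difference, beside a median of 3.08.

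**Figure D3:**
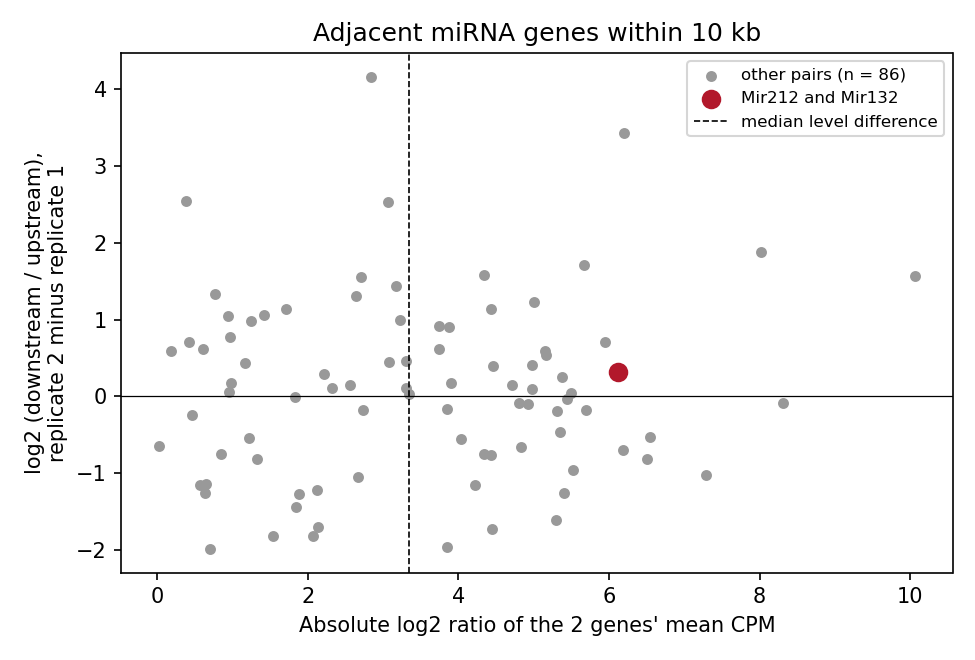
The 87 adjacent pairs of expressed miRNA genes. The x axis is the absolute log2 ratio of the mean CPM of the 2 genes, with the median of 3.35 dashed, and the y axis is the log2 ratio of the downstream to the upstream gene in replicate 2 minus that in replicate 1. The pair of Mir212 and Mir132 (red) lies to the right at 6.11 with a change of 0.32.

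Both members were lower in replicate 2, Mir212 by more than Mir132. On TMM-scaled totals the log2 ratio of replicate 2 to replicate 1 was -0.20 for Mir132 and -0.52 for Mir212. Both passed the two-sided exact binomial test between the libraries with Benjamini-Hochberg adjustment over 438 genes, at an adjusted p = 1.97e-37 for Mir212 and at one too small to be represented for Mir132. The test knows counting noise alone and compares the libraries, not conditions. It called 67.1% of all genes tested and 34.5% as lower in replicate 2, and against these shares the calls at 2 of 2 members do not set them apart. Of the 409 expressed genes, 73 had a smaller ratio in size than Mir132 and 198 a smaller one than Mir212, and the median size was 0.54. TMM moved all log2 ratios by 0.13 against raw totals, and both members were lower in replicate 2 under each of the 3 scalings tried.

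The ratio of Mir132 to Mir212 was higher in replicate 2 by 0.32 on the log2 scale, or 1.25-fold (two-sided Fisher's exact test of the counts, Benjamini-Hochberg adjusted over 87 pairs, p = 2.14e-14). The same test called 75.9% of the 87 pairs. The change was smaller in size in 22 of the 87 pairs, and their median was 0.75. Both genes lay on the same side of 0 between the libraries in 49 of the 87 pairs and both were lower in replicate 2 in 25.

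The genes nearest to each member in log2(CPM + 1) over both libraries lay inside protein-coding genes on their own strand, apart from Mir127. The opposite strand was not searched. For Mir132 they were Mir744 (in an intron of Map2k4, distance 0.34 in log2 units), Mir127 (0.55) and Mirlet7e (in an intron of Spaca6, 0.64). Mir127, like Mir132, was lower in replicate 2, while Mir744 and Mirlet7e were higher, with log2 ratios of -0.49, 0.28 and 0.40. For Mir212 they were Mir3102 (in an exon of Arhgef17, 0.09), Mir326 (in an intron of Arrb1, 0.29) and Mir1224 (in an intron of Vwa5b2, 0.29), all lower in replicate 2 with log2 ratios of -0.55, -0.75 and -0.35. With 2 libraries, likeness rests on 2 values per gene.

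Other miRNAs linked to neuronal activity or plasticity were mostly expressed, and Mir132 was the highest of their list by gene counts. The list named 19 genes, of which 18 matched by symbol (Mir92a-1 did not) and 15 were expressed. Mir132 and Mir212 held 45.5% of its summed level in replicate 1 and 42.4% in replicate 2. This share and the first place of Mir132 hold for gene counts, which leave out reads with several places. The miR-124 copies add almost nothing to the sum for that reason, so the share may be overstated. After Mir132 came Mir29a (18699 ± 3113 CPM), Mir191 (10008 ± 161.8 CPM) and Mir137 (6618 ± 2001 CPM). Mir29a and Mir137 are linked to spine shape and to neuronal maturation. Mir138-1 (4765 ± 295.4 CPM), from a gene family whose miRNA acts at dendritic spines, and Mir485 (3629 ± 2135 CPM), which acts on presynaptic protein, followed (SD, n = 2 for each). Reads that fit both Mir138-1 and Mir138-2 are in neither count, so these counts may understate their miRNA.

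Of the 16 other matched genes, 7 were above Mir212. Mir134, a dendritic miRNA that limits spine size, was below it, with 371.6 CPM and 396.6 CPM in replicates 1 and 2, and unlike the members it was higher in replicate 2. The neuronal miR-124 is encoded by 3 copies, which had 21, 1 and 2 counts in replicate 1 and 6, 2 and 1 in replicate 2. All 3 copies share 20 nucleotides or more with another miRNA gene, and reads with several places are not in the gene counts, so these counts do not give the level of miR-124. Of the 14 others with enough counts to test, 6 were lower in replicate 2, 6 were higher and 2 did not pass, with a median log2 ratio of -0.01. Over all genes tested the same test called 67.1%, with 34.5% lower in replicate 2, and the median was -0.08.

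**Figure D4:**
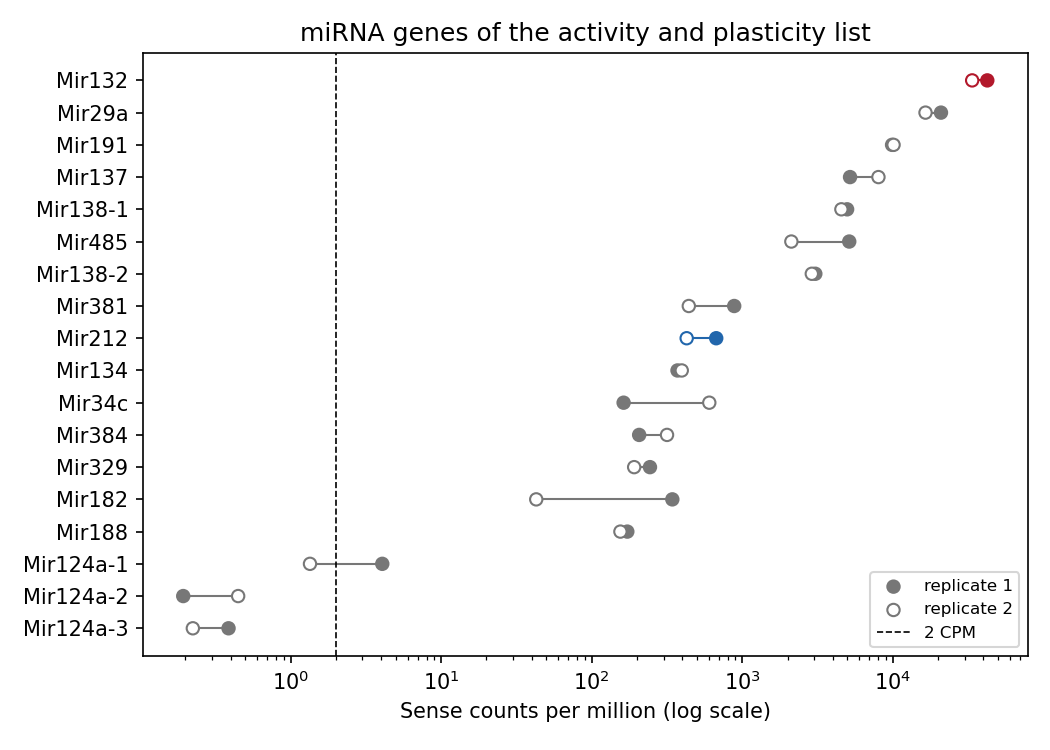
Levels of the 18 matched genes of the activity and plasticity list. The x axis is the level in CPM on a log scale, filled points are replicate 1 and open points replicate 2, and the dashed line marks 2 CPM. Mir132 (red) is the highest gene and Mir212 (blue) lies between Mir381 and Mir134.

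Markers of the cell types in the dissected tissue differed between the libraries in part. Of 8 neuron markers 5 were expressed, with a summed level of 36750 CPM and 32334 CPM in replicates 1 and 2, and the miR-124 copies, whose counts leave out reads with several places, were not informative. Reads that fit both Mir128-1 and Mir128-2, or both Mir138-1 and Mir138-2, are left out as well. The neuron sum and the values of these genes may thus not give the levels of their miRNAs. Both oligodendrocyte markers were expressed, at 3945 and 3862 CPM in sum. The endothelial Mir126a stood at 21257 and 10411 CPM, both mural markers summed to 5077 and 9896 CPM, and all 4 microglia and leukocyte markers to 1381 and 1331 CPM. All 5 epithelial markers were lower in replicate 2, at 1465 and 121 CPM in sum, and the 5 choroid plexus and ciliated cell markers, 4 of them expressed, were at 726 and 1112 CPM. Red cell (79.2 and 52.7 CPM), striated muscle (25.5 and 76.5 CPM, Mir208b at 0) and liver (54.6 and 60.1 CPM) markers were low. Log2 ratios of the sums in replicate 2 to replicate 1 were taken on the TMM-scaled totals used for the members. They were -0.90 for endothelium, -3.47 for epithelium and -0.46 for red cells, on the same side as both members. Of the red cell markers, Mir144 was called lower and Mir451a was not called. On the other side were mural (1.09), choroid plexus and ciliated cell (0.75), striated muscle (1.71) and liver (0.27) markers. Of the choroid plexus and ciliated cell markers, Mir34c (2.02) and Mir34b (1.48) were called higher. Mir204, the highest of them in the mean, was at -0.06 and not called, and Mir449a (0.24) was not called. Mir211, at -0.27, had too few counts to test. The log2 ratio of the sum was -0.05 for neuron markers, which turned to 0.02 with DESeq2 size factors. Single neuron markers went both ways, with Mir128-1, the highest of them, at -0.40 and Mir137 at 0.76. For the sums of oligodendrocyte and of microglia and leukocyte markers the log2 ratio was 0.10 and 0.08. In CPM both of these sums were lower in replicate 2, so their side depends on the scaling. Mir219a-2 was called lower (-0.12) and Mir338 higher (0.33) among the oligodendrocyte markers. Of the microglia and leukocyte markers, Mir142, Mir155 and Mir223 were called higher in replicate 2, and Mir150, which holds most of the sum, was not called. The part of these cell types in the difference of the members was not tested.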

How the data were processed

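Small RNA libraries of 2 cortex samples were analysed. The authors deposited read counts per miRNA gene, not normalized, on build mm10 and GENCODE M21 per the labels and file descriptions. Which aligner and counter were run is not given in the sources used here. Reads of CAST origin that differ from the reference may have been lost. All 2202 gene identifiers matched GENCODE M21. The 4 lines that name no gene, 65.2% and 65.1% of reads, were left out of totals. Of the stranded columns, the one with more counts in each library was used as sense.

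CPM, ranks, exact binomial tests (pooled count of 20 or more, ratios with 0.5 added) and Fisher's exact tests used scipy 1.17.1, with TMM totals from edgeR 4.0.16, adjusted p under 0.05 being called. DESeq2 1.42.0 size factors were an alternative. A quasi-likelihood test could not be fitted with 1 group. Both tests were tested on simulated data. Hairpins were folded with RNAfold 2.7.2. Sequences are from RefSeq (GRCm38.p6). No molecular identifiers are recorded, so intervals and limits cover counting error only.

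The members and lists were chosen with earlier results of these data known. Named were both members, the 3 genes nearest each in level over both libraries, and up to 6 of the highest genes of the activity list. Also named were the genes beside the pair, the 3 most unequal neighbour pairs, and the 2 nearest to the member pair in level difference. Mir134, Mir124a copies and the genes next in rank were added after their values were seen.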

Additional observations from a re-analysis of the deposited data

Results flagged for a closer look

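Reads outside the miRNA gene counts, which no comparison here uses, were recorded in both libraries. Replicate 1 held 6203588 reads with more than 1 genomic place and replicate 2 held 5928954, beside 863893 and 573340 reads outside annotated miRNA genes. They are not split by gene, so none can be assigned to Mir132 or Mir212, and antisense counts at both genes were 0.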

How the results depend on the processing

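For 12 results 53 alternatives were run, none reversed a direction or changed a call, and 46 stayed within the spread or threshold set for them. Part of this was fixed in advance, so the tally is not a measure of robustness. With 2 libraries, leaving 1 out always keeps a mean level or ratio within their SD. Levels, ratios and ranks are positive and cannot reverse. The count added to ratios does not enter the p-values, and the unstranded counts of both members equal their sense counts. With all reads as the denominator, the levels were 13263 CPM for Mir132, 191.5 CPM for Mir212 and 13455 CPM for both. On the unstranded column Mir212 stood at rank 102. Per hairpin length the ratio of Mir132 to Mir212 was 97.9. Pairs with no shared stretch, chosen after seeing the data, had a median level difference of 3.08. Leaving out a library in turn gave 33684 to 42450 CPM for Mir132, 427.6 to 671.8 CPM for Mir212, 34111 to 43122 CPM for both, ratios of 63.2 to 78.8, ranks of 5 to 7 and 111 to 121, and median pair differences of 3.36 to 3.70. On total counts and DESeq2 size factors, the log2 ratio of replicate 2 to replicate 1 was -0.33 and -0.13 for Mir132 and -0.65 and -0.45 for Mir212. The cause of these shifts was not tested. No paired analysis was possible because there is 1 group. With 2 libraries, the spread of a level rests on 1 degree of freedom.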
